A study of Mus musculus with 18 samples.

Results

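The glucocorticoid receptor gene Nr3c1 and 6 genes known to respond to the receptor (Tsc22d3, Fkbp5, Sgk1, Ddit4, Zbtb16 and Txnip) were examined in CD4 T cells of mouse lymph nodes, thymus and fat. The members were taken by name: a probe set counted when the annotation gave it 1 gene symbol and that symbol was 1 of the 7, and each gene was read from its probe set with the highest mean over the 18 arrays. All 7 genes were found, on 20 probe sets of 45101 on the array, and are 7 of 18193 genes with a named probe set. Regulatory T cells (Treg, CD25+) and conventional T cells (Tconv, CD25-) were sorted from each tissue as CD4+ cells lacking B220, CD11b and CD8a, and each of the 6 groups holds 3 Affymetrix M430v2 arrays. The lymph node cells came from C57BL/6 mice of 32 to 36 weeks (cervical, inguinal and mesenteric nodes, 3 to 6 mice per array). The fat cells came from the epididymal adipose tissue of male C57Bl/6 mice of 25 to 35 weeks (8 to 10 mice per array), with TCRb+ added to the sort. Thymus cells were sorted after depletion of CD8a cells, from mice of the BDC2.5/NOD strain aged 4 to 6 weeks (3 to 6 mice per array); BDC2.5 is a T cell receptor transgene on the NOD background, so strain and age differ together with tissue there and cannot be told apart from it. Every array is a pool of mice, so errors and p-values measure the spread between pools.

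The glucocorticoid receptor is a nuclear hormone receptor that is held in the cytoplasm by chaperones, enters the nucleus when it binds a glucocorticoid such as corticosterone, and there binds DNA directly or through other factors. Its targets include feedback regulators of the receptor itself (Fkbp5), mediators of its anti-inflammatory action (Tsc22d3) and regulators of growth and metabolism (Sgk1, Ddit4 and Txnip). Glucocorticoids are known for killing immature thymocytes, for restraining cytokine production by effector T cells and for acting on adipose tissue, and several of the 6 response genes also answer to other signals: Sgk1 to growth factors and salt, Ddit4 to hypoxia and energy stress, and Txnip to glucose.

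The sort held in each tissue. Foxp3, the Treg transcription factor, was higher in Treg by 4.36 ± 0.28 in lymph node, 4.57 ± 0.28 in thymus and 4.18 ± 0.28 in fat (log2 fold change ± SE, limma, adjusted p = 3.03e-08, 1.43e-08 and 1.11e-08), and the T cell gene Cd3e was bright in all 6 groups (group means of 1040 to 2220, deposited intensity). The 6 fat arrays run brighter as deposited (array medians of 76.9 to 82.2, against 57.9 to 63.0 on the other 12), so tissues are compared after quantile normalization of all 18 arrays, and the intensities of single arrays below are on that common scale; Treg and Tconv of 1 tissue are compared on the deposited values. Markers of other cells and of handling stood higher in fat. On the common scale the summed intensity of 10 handling and immediate early genes was 33300 to 43800 on the fat arrays and 4710 to 10100 elsewhere, with all 10 above the dim limit of 65.9 in fat and 5 or 6 in each other group. Summed macrophage and monocyte markers were 2310 to 6540 in fat against 703 to 1120 elsewhere (9 of 11 above the limit in fat, 5 of 11 elsewhere; Itgam and Cd68 below it in fat), adipocyte markers 1900 to 5030 against 206 to 301 (3 of 6 in fat; Adipoq, Lep and Cidec below it), and stromal and endothelial markers 2520 to 7220 against 470 to 558 (6 of 10 in fat). The log2 ratio of 3' to 5' Gapdh control signal, a measure of RNA integrity and amplification, was 3.01 to 3.88 in fat and 1.92 to 3.39 elsewhere. In thymus, summed markers of immature thymocytes were 2530 to 5650 against 855 to 2050 elsewhere (5 of 8 above the limit, 2 or 3 elsewhere). Those of NK and innate-like cells were 1420 to 7160 in Treg and 1120 to 1850 in Tconv, against 333 to 838 in the other tissues. Of these 9 markers, only 2 were above the limit in thymus Treg and 3 in thymus Tconv, beside 2 to 4 in the other groups. Most of that list was thus dim in thymus too. The part of these signals in the results below was not tested.

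In fat Treg, 6 of the 7 genes differed from lymph node Treg at an adjusted p under 0.05 (limma, Benjamini-Hochberg over 12821 genes above the dim limit): Nr3c1, Sgk1, Fkbp5 and Tsc22d3 were higher and Ddit4 and Txnip lower. The same test called 34.3% of all genes, and the median log2 change was 0.95 over the 7 genes and 0.01 over all. The count of 6 was not stable: 3 to 5 of the 7 were called without 1 array in turn, and 3 with arrays centred on the median. In sorted bulk samples, less RNA per cell and fewer cells that carry it cannot be told apart. In Tconv, fat differed from lymph node for Nr3c1 (higher) and Ddit4 (lower), 2 of 7, where 22.5% of all genes were called. Thymus Treg differed from lymph node Treg for Fkbp5 (higher) and Ddit4 (lower), 2 of 7, beside 11.8% of all genes, and thymus Tconv from lymph node Tconv for 0 of 7, beside 8.88% (0 of 7 also at an unadjusted p under 0.05). Within a tissue, Sgk1 alone was called: it was lower in Treg of lymph node (1 of 7; 4.32% of all genes called) and of thymus (1 of 7; 4.98%), and 0 of 7 were called in fat (11.5%), where Fkbp5 had an unadjusted p of 0.00996. No gene of the 7 was called for a Treg effect that differed between fat and lymph node (4.85% of all genes called; Sgk1 had an unadjusted p of 0.00328) or between thymus and lymph node (0.304%; Txnip had 0.0221 and Ddit4 0.0468). With arrays of the same replicate number as a block within a tissue (the replicate block), which asks how Treg and Tconv differ within pairs, the calls over all genes rose to 1028 in lymph node, 1528 in thymus, 2652 in fat and 1416 for the fat minus lymph node difference, and those of the 7 genes to 2 in thymus, 2 in fat and 1 for that difference, as given with each gene. The comparisons with lymph node share its arrays, so their values are not independent. With 3 arrays a side, groups often do not overlap. In fat against lymph node they did not overlap for 7 of 7 genes in Treg (49.5% of all genes) and 3 in Tconv (36.3%). In thymus against lymph node it was 2 in Treg (23.6%) and 2 in Tconv (27.1%). Treg and Tconv did not overlap for 1 gene in lymph node (16.5%), 3 in thymus (19.3%) and 1 in fat (25.2%).

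**Figure D1:**
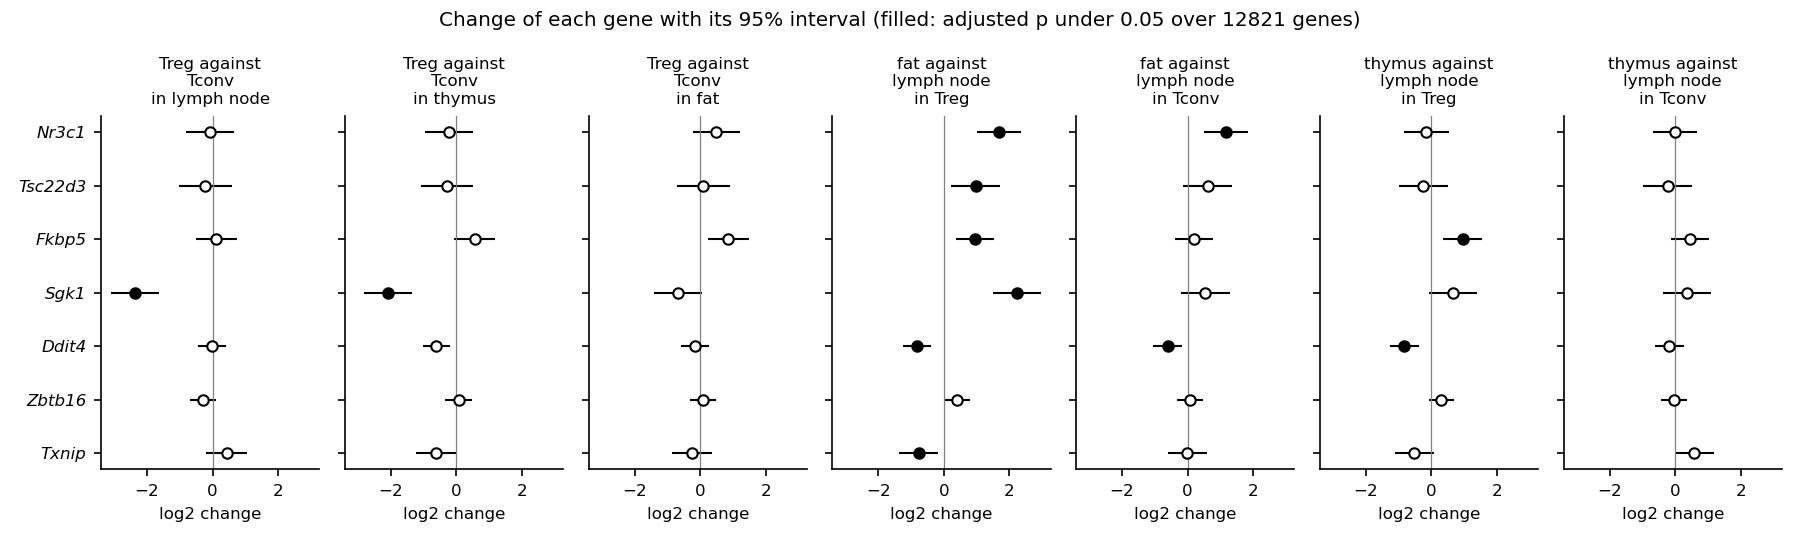
Log2 change of each of the 7 genes (x axis; 0 is no change) in 7 comparisons, 1 panel each, with 95% intervals from limma over 3 arrays per group; filled points have an adjusted p under 0.05. Sgk1 stands at -2.36 and -2.08 in the lymph node and thymus panels, and in fat against lymph node in Treg 6 of the 7 points are filled, from -0.82 for Ddit4 to 2.23 for Sgk1.

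Nr3c1, the receptor gene, was higher in fat than in lymph node in both cell types. On the 3 fat Treg arrays its intensity was 6580, 4490 and 5430, and on the 3 lymph node Treg arrays it was 2000, 1830 and 1300. The fat Tconv arrays gave 6150, 2550 and 4330, the lymph node Tconv arrays 2350, 1890 and 1310. Every fat array lay above every lymph node array of its cell type, and fat Tconv replicate 2, at 2550, came closest. The change was 1.69 ± 0.32 in Treg, a 3.23-fold difference (adjusted p = 0.000529), and 1.18 ± 0.32 in Tconv, 2.27-fold (adjusted p = 0.0125; limma). The Tconv call was lost without fat Tconv replicate 1 (0.88, adjusted p = 0.0784) or without lymph node Tconv replicate 3 (0.95, adjusted p = 0.0674), and the direction was the same without each of the 6 arrays in turn. Compared only within groups of neighbouring CEL file numbers, each of which holds 1 fat and 1 lymph node array of a cell type, fat was higher by 1.30 to 2.34 in Treg and by 0.43 to 2.23 in Tconv. The next 2 probe sets of Nr3c1, above the dim limit in all 6 groups, rose in both cell types too, by 1.75 and 2.37 in Treg and by 1.28 and 1.94 in Tconv. The fourth was above the limit in the fat groups alone and is given no size here. The others were below the limit in all 6 groups. The thymus arrays, at 996 to 2050 in Treg and 1390 to 2150 in Tconv, overlapped the lymph node values and had a change of -0.15 (interval -0.82 to 0.53) and -0.01 (-0.68 to 0.67). Treg minus Tconv was -0.07 in lymph node (interval -0.80 to 0.66) and -0.22 in thymus (-0.95 to 0.51), neither of them called. In fat, Treg exceeded Tconv in 3 of 3 pairs of the same replicate number (by 0.23 to 0.92). The fitted difference of 0.50 ± 0.35 had an adjusted p of 0.492, and of 0.022 with the replicate block. In the order of levels, fat Treg and fat Tconv came first with no called difference between them (0.41, adjusted p = 0.535), fat Tconv differed from the next group, lymph node Tconv (1.18), and the remaining 4 groups followed with neighbouring gaps of 0.01 to 0.15.

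**Figure D2:**
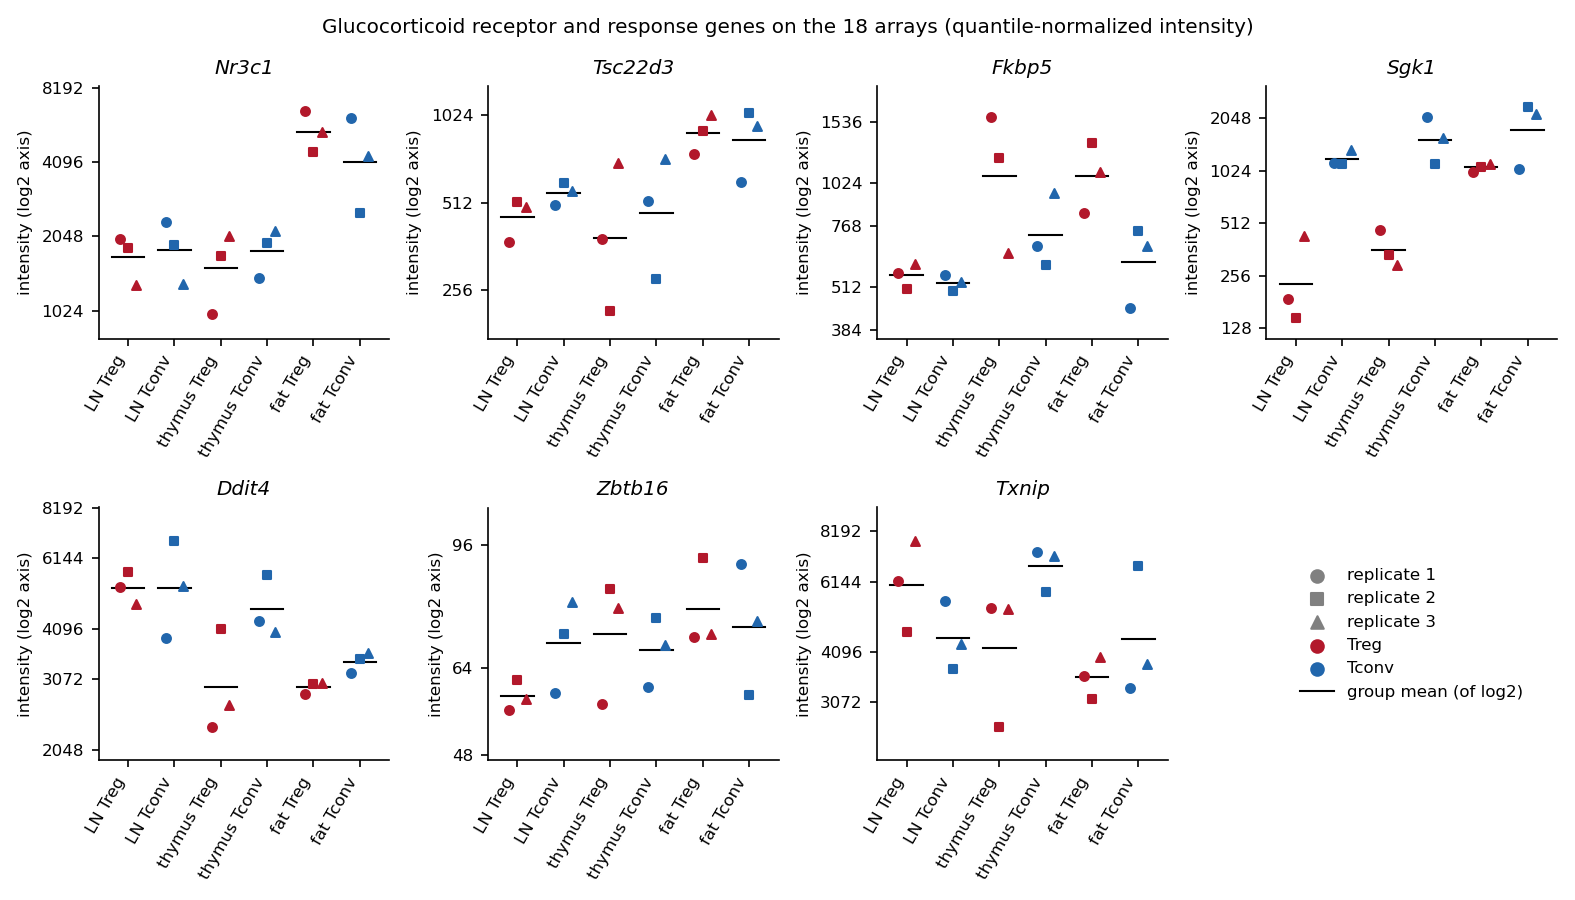
Quantile-normalized intensity of each gene on the 18 arrays (y axis on a log2 scale with its own range in each panel), by group, with 1 point per array, its shape giving the replicate number, and a bar at the mean of the log2 values. Nr3c1 runs from 2550 to 6580 on the 6 fat arrays and from 996 to 2350 on the other 12; Sgk1 is at 147 to 469 in Treg of lymph node and thymus and at 1010 to 2370 in the other 4 groups.

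Tsc22d3 encodes GILZ, a leucine zipper protein that mediates much of the anti-inflammatory action of glucocorticoids. The probe set used gave 756, 907 and 1030 in fat Treg and 374, 514 and 494 in lymph node Treg. It gave 605, 1040 and 941 in fat Tconv and 501, 599 and 561 in lymph node Tconv. The groups did not overlap in either cell type, as for 49.5% of all genes in Treg and 36.3% in Tconv. Fat Tconv replicate 1 lay just above the brightest lymph node array. The change was 0.97 ± 0.36 in Treg (1.95-fold, adjusted p = 0.0463) and 0.61 ± 0.36 in Tconv (adjusted p = 0.256, limma). The Treg call was near the threshold: leaving out any 1 of the 6 arrays ended it (changes of 0.82 to 1.09, adjusted p = 0.0598 to 0.149), and so did centring each array on its median (0.82, adjusted p = 0.118) and leaving out the filter on dim genes (adjusted p = 0.0548). The Tconv change passed with the file number groups as a block (adjusted p = 0.0304). The other probe sets of the gene gave other sizes. The second brightest one gave 1090, 1390 and 1240 in fat Treg and 166, 198 and 172 in lymph node Treg, a change of 2.79 ± 0.24 (adjusted p = 1.01e-07). In Tconv the same probe set gave 1230, 1510 and 984 in fat and 202, 248 and 221 in lymph node, a change of 2.46 ± 0.24 (adjusted p = 1.12e-06). The third changed by 0.57 ± 0.16 in Treg (adjusted p = 0.0106) and had 0.11 ± 0.16 in Tconv (adjusted p = 0.703). All 3 rose in fat Treg, and the interval of the second (2.29 to 3.29) lay above those of the one used (0.21 to 1.72) and of the third (0.23 to 0.91). The thymus arrays spread widely on the probe set used, from 216 to 701 in Treg and from 279 to 726 in Tconv, with replicate 2 lowest and replicate 3 highest in both. Treg and Tconv did not differ beyond their spread in any tissue (-0.22 in lymph node, -0.28 in thymus and 0.10 in fat, each ± 0.38). No 2 neighbours in the order of levels (fat Treg, fat Tconv, lymph node Tconv, thymus Tconv, lymph node Treg, thymus Treg) differed at an adjusted p under 0.05.

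**Figure D3:**
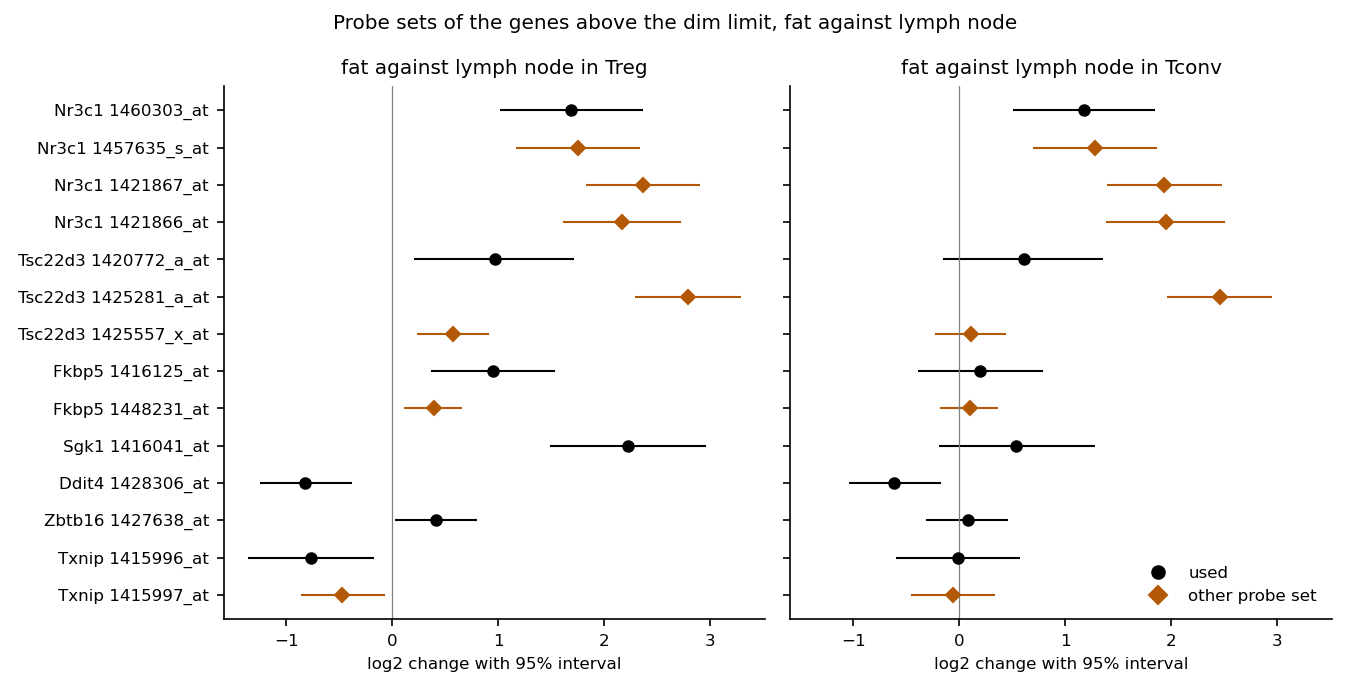
Log2 change in fat against lymph node (x axis, with 95% intervals) in Treg (left) and Tconv (right) for each probe set of the 7 genes that was above the dim limit in at least 1 group. The 4 Nr3c1 probe sets lie between 1.69 and 2.37 in Treg (1 of them was below the limit outside fat, so its size is approximate), while those of Tsc22d3 lie at 0.97, 2.79 and 0.57.

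Promoter windows from the RefSeq table (GRCm38.p6) are described for 5 of the genes, and none for Nr3c1 and Zbtb16. They number 12, each of 300 bases, 250 before to 50 after an annotated start, and 3 belong to Tsc22d3. They were searched on both strands, as were all 32851 windows of that length, for the palindromic glucocorticoid response element (the arms AGAACA and TGTTCT with 3 free bases between), for its looser core (GNACA and TGTNC around 3 free bases), for the arm AGAACA alone, for the E-box CACGTG bound by glucose-sensing and circadian factors, and for the forkhead site GTAAACA. The looser core and the single arm lie within the full element, so those matches overlap. Of the Tsc22d3 windows, 1 held a match, a single arm at -185 from the start, a match that 19% of all windows have. A match is a description of these letters and does not show that the receptor binds. The 250 bases before that start (chrX:140600523-140600772, minus strand) are shown with the arm in capitals, for comparison with the other members.
Tsc22d3: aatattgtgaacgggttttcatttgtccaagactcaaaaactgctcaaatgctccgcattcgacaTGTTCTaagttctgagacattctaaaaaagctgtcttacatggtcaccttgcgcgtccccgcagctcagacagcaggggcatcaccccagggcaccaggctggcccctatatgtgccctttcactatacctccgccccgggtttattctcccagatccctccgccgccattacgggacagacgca

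Fkbp5 encodes a co-chaperone that lowers the affinity of the receptor for its ligand and is induced by the receptor, which closes a feedback loop. Its intensity was 836, 1330 and 1100 in fat Treg and 562, 504 and 596 in lymph node Treg. Fat Tconv gave 444, 740 and 673, and lymph node Tconv 552, 498 and 529. The fat Treg arrays lay above all lymph node arrays, while fat Tconv replicate 1 was the lowest of all 18 arrays. Fkbp5 rose in fat Treg by 0.95 ± 0.28 (1.93-fold, adjusted p = 0.0133) and had 0.20 ± 0.28 in Tconv (adjusted p = 0.671, limma). The Treg call ended without fat Treg replicate 2 (0.79, adjusted p = 0.0648) and with arrays centred on the median (0.84, adjusted p = 0.0523). Within fat, Treg exceeded Tconv in 3 of 3 pairs, by 0.70 to 1.10. The fitted difference was 0.86 ± 0.30 (1.82-fold), with an adjusted p of 0.0759 without and 0.0352 with the replicate block. Thymus Treg gave 1590, 1210 and 641 and thymus Tconv 670, 590 and 955. Fkbp5 was higher in thymus than in lymph node Treg by 0.96 ± 0.28 (adjusted p = 0.0317), and this call was lost without thymus Treg replicate 1 (0.67, adjusted p = 0.187), in which the gene was brightest, in 5 of the 6 fits that leave out 1 array (0.67 to 1.33), and with arrays centred on the median (adjusted p = 0.0671). Thymus Treg replicates 1 and 2 lie in groups of neighbouring file numbers that hold no lymph node array. In the group shared by thymus Treg replicate 3 and lymph node Treg, thymus was higher by 0.19. The second probe set above the dim limit gave smaller values: 0.39 ± 0.13 in fat Treg (adjusted p = 0.0288) and 0.13 ± 0.13 in thymus Treg (adjusted p = 0.681). Thymus Treg and fat Treg headed the order of levels, lymph node Treg and Tconv closed it, and no neighbours differed at the threshold. The single Fkbp5 window held the E-box, at -169, and no response element; 7.15% of all windows hold that E-box.

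Sgk1 encodes a serum- and glucocorticoid-regulated kinase that acts on ion transport and on Foxo transcription factors. It was the only member called between Treg and Tconv in the main fits, which used no block. The replicate block added Nr3c1 and Fkbp5 in fat and Ddit4 in thymus. Fkbp5 in fat also passed with the file number groups as a block (limma, adjusted p = 0.00674). Ddit4 in thymus passed with these groups as a random block (adjusted p = 0.0209). In lymph node Sgk1 gave 187, 147 and 432 on the Treg arrays and 1140, 1120 and 1350 on the Tconv arrays. In thymus it gave 469, 338 and 294 in Treg and 2080, 1120 and 1570 in Tconv. The groups did not overlap in either tissue, and replicate 3 was the brightest lymph node Treg array. Sgk1 was lower in Treg: the change was -2.36 ± 0.35 in lymph node, 5.14-fold (adjusted p = 0.000301), and -2.08 ± 0.35 in thymus, 4.24-fold (adjusted p = 0.00113; limma), with each of 3 pairs below 0 in both tissues (-2.88 to -1.60 and -2.44 to -1.75). Both calls held without each array in turn (changes of -2.77 to -2.05 and of -2.31 to -1.90). In fat the Treg arrays gave 1010, 1080 and 1120, above all lymph node and thymus Treg arrays, and the Tconv arrays 1050, 2370 and 2150. Fat Tconv replicate 1 lay among the Treg values and the other 2 above them. The Treg effect in fat was -0.67 ± 0.35 (adjusted p = 0.299), and -1.11 ± 0.32 without fat Tconv replicate 1 (adjusted p = 0.03). Sgk1 was higher in fat than in lymph node Treg by 2.23 ± 0.35 (4.68-fold, adjusted p = 9.6e-05), a call kept without each of the 6 arrays (1.91 to 2.69), and the change within groups of neighbouring file numbers was 1.22 to 2.88. In Tconv the change was 0.54 ± 0.35 (adjusted p = 0.301). Thymus Treg stood at 0.66 ± 0.35 against lymph node Treg (adjusted p = 0.279), and at 1.12 without lymph node Treg replicate 3 (adjusted p = 0.0311). The difference of these effects, which asks whether Treg and Tconv part less in fat than in lymph node, was 1.69 ± 0.49 (interval 0.65 to 2.73, adjusted p = 0.062, and 0.0115 with the replicate block). It also passed the threshold without lymph node Treg replicate 3 (2.10, adjusted p = 0.00945) and without fat Tconv replicate 2 (1.93, adjusted p = 0.0401). In the order of levels, the 3 Tconv groups and fat Treg came first, with neighbouring gaps of 0.17 to 0.36 that were not called, and a called gap of 1.57 (adjusted p = 0.00164) set fat Treg above thymus Treg and lymph node Treg. The gene has 1 probe set, so no second one checks these values.

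Sgk1 has 6 windows in the table, and 3 of them held a match. Among the 12 windows described, which cover 5 genes and neither Nr3c1 nor Zbtb16, only the Sgk1 window shown held the full palindromic element. It lay at -189 from the start, and 3 of all 32851 windows (0.00913%) hold it. The E-box stood in the same window at -246, overlapped by a further single arm at -242 that is left in lower case, and the other 2 windows held a single arm each. The 250 bases before this start (chr10:21993640-21993889, plus strand) carry both matches in capitals, the E-box first.
Sgk1: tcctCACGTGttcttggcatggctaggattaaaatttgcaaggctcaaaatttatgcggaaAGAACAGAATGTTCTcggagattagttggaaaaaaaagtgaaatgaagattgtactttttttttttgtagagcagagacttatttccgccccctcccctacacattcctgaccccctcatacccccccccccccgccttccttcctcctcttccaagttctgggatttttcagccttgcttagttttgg

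Ddit4 encodes REDD1, which restrains the growth kinase mTOR under stress and after glucocorticoids. It was bright in all groups and lower in fat and in thymus Treg. Lymph node Treg gave 5190, 5670 and 4720, fat Treg 2820, 2980 and 3000, and thymus Treg 2340, 4090 and 2650. The lymph node arrays lay above all 6 of the others. Ddit4 fell by 0.82 on the log2 scale in fat Treg (change -0.82 ± 0.21, 1.76-fold, adjusted p = 0.0051) and by the same amount in thymus Treg (-0.82 ± 0.21, adjusted p = 0.0137; limma), both against the same 3 lymph node arrays. The fat call held without each array in turn, and was lost on the deposited values (-0.34, adjusted p = 0.16), which carry the brighter fat scale. The thymus call was lost without thymus Treg replicate 1 (-0.65, adjusted p = 0.0864) or lymph node Treg replicate 2 (-0.75, adjusted p = 0.0611). Fat Tconv gave 3180, 3450 and 3560 and lymph node Tconv 3890, 6760 and 5240, a change of -0.61 ± 0.21 (1.52-fold, adjusted p = 0.0426) that passed the threshold in 1 of the 6 fits without 1 array (adjusted p = 0.0127 to 0.21) and was lost on the deposited values (-0.20, adjusted p = 0.428) and with arrays centred on the median (-0.58, adjusted p = 0.0589). Treg minus Tconv was -0.01 in lymph node (interval -0.43 to 0.41) and -0.15 in fat (-0.57 to 0.27), neither of them called. In thymus, where Tconv gave 4270, 5570 and 4030, Treg lay below Tconv in 3 of 3 pairs (-0.83 to -0.43), and the difference of -0.61 ± 0.20 had an adjusted p of 0.098, of 0.0112 with the replicate block and of 0.0183 without thymus Treg replicate 2 (-0.83). Neighbours in the order of levels (lymph node Treg, lymph node Tconv, thymus Tconv, fat Tconv, thymus Treg, fat Treg) did not differ at the threshold. The Ddit4 window held no match.

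Zbtb16 encodes PLZF, a zinc finger repressor that glucocorticoids induce strongly in many cells and that marks innate-like T cells. It was dim everywhere, at 55.7 to 92.1 over the 18 arrays, close to the dim limit of 65.9, and its group mean passed that limit in the 2 fat groups alone, as deposited. Fat Treg gave 71.0, 92.1 and 71.5 and lymph node Treg 55.7, 61.5 and 57.8, which do not overlap, as for 49.5% of all genes. The change of 0.41 ± 0.18 (interval 0.03 to 0.80) did not pass (adjusted p = 0.0892, limma), but did on the deposited values (0.83, adjusted p = 0.00173), which carry the brighter fat scale. In Tconv the change was 0.08 (interval -0.31 to 0.46), and the Treg effects were -0.28, 0.07 and 0.10 in lymph node, thymus and fat, each ± 0.19. Its other probe sets were below the dim limit in all 6 groups. No group stood apart from its neighbours in the order of levels.

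Txnip encodes a thioredoxin-interacting arrestin that limits glucose uptake and is induced by glucose as well as by glucocorticoids. It gave 6170, 4600 and 7750 in lymph node Treg and 3580, 3130 and 3980 in fat Treg, without overlap. Lymph node Tconv gave 5490, 3710 and 4300 and fat Tconv 3340, 6700 and 3830, which overlap. Txnip fell in fat Treg (-0.77 ± 0.28, 1.70-fold, adjusted p = 0.044, limma) and had -0.01 ± 0.28 in Tconv (adjusted p = 0.984). The Treg call was lost in 5 of 6 fits without 1 array (-0.96 to -0.59, adjusted p = 0.0278 to 0.155), on the deposited values (-0.24, adjusted p = 0.498), with arrays centred on the median (-0.67, adjusted p = 0.0982) and on the second probe set (-0.47 ± 0.19, adjusted p = 0.062). Thymus Treg gave 5290, 2670 and 5260 and thymus Tconv 7300, 5790 and 7110, so every Tconv array lay above every Treg array. Treg and Tconv of thymus did not overlap for 19.3% of all genes, as deposited. The Treg effect there was -0.61 ± 0.29 (adjusted p = 0.339) on this probe set and -0.65 ± 0.20 (adjusted p = 0.0718) on the second. In lymph node it was 0.43 ± 0.29 (adjusted p = 0.754), with Treg above Tconv in 3 of 3 pairs. No neighbours in the order of levels (thymus Tconv, lymph node Treg, lymph node Tconv, fat Tconv, thymus Treg, fat Treg) differed at the threshold. The Txnip window held the looser core at -172 (0.475% of all windows hold it) and the forkhead site at -121 (3.65%). The 250 bases before the start (chr3:96557707-96557956, plus strand) carry the core and then the forkhead site in capitals.
Txnip: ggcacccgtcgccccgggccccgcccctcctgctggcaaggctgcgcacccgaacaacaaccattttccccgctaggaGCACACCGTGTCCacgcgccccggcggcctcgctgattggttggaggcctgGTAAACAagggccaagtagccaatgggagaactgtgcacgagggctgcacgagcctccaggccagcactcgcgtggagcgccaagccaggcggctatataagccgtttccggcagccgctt

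**Figure D4:**
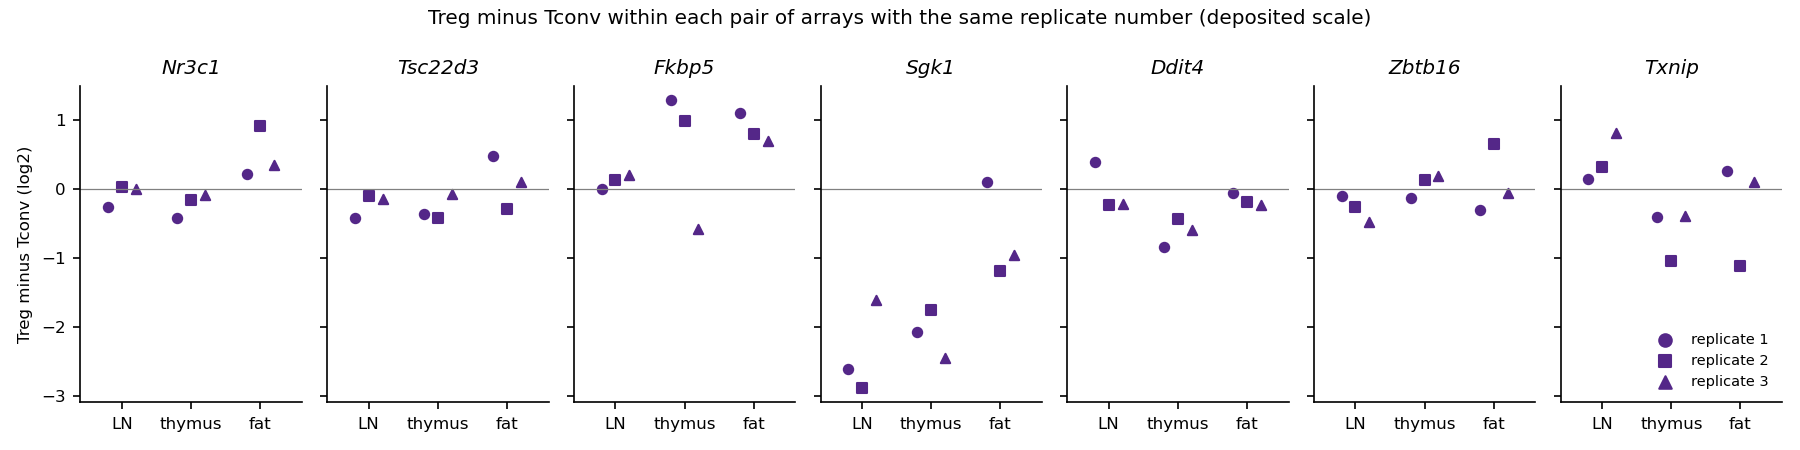
Treg minus Tconv (y axis, log2 of the deposited intensities) within each pair of arrays of the same tissue and replicate number, for the 7 genes; the grey line is 0. All 6 Sgk1 points of lymph node and thymus lie between -2.88 and -1.60, all 3 Fkbp5 points of fat between 0.70 and 1.10, and the Txnip points are above 0 in lymph node and below 0 in thymus.

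The receptor's partners were called in fat at shares near those of all genes. Of 15 tested receptor partners and coregulators, which hold the receptor ready or transmit its signal, 4 were called in fat Treg against lymph node Treg (2 higher, 2 lower; 26.7%, beside 34.3% of all genes) and 4 in Tconv (4 higher; 26.7% beside 22.5%), with medians of 0.00 and 0.08. The chaperone gene Dnaja1 rose in fat Treg (1.14 ± 0.15) and Tconv (0.72 ± 0.15), Hsp90aa1, the inducible chaperone that binds the receptor, rose in fat Tconv (1.00 ± 0.14), and Hdac2, a histone deacetylase, fell in fat Treg (-0.78 ± 0.22). Fkbp4, the co-chaperone that opposes Fkbp5, had -0.26 ± 0.22 in fat Treg (adjusted p = 0.37) and rose in thymus Treg by 0.95 ± 0.22 (adjusted p = 0.00709), as Hdac2 did (0.95). In thymus Treg 5 of the 15 were called (33.3%, beside 11.8%). Nr3c2, the mineralocorticoid receptor, which binds the same hormones, was below the dim limit in every group (deposited means of 23.2 to 58.5).

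Of 8 tested genes of steroid conversion and transport, 3 were called in fat Treg (37.5%, beside 34.3% of all genes) and 2 in fat Tconv (25% beside 22.5%). Hsd11b1, whose enzyme regenerates active glucocorticoid from its inert form, was bright in all groups (deposited means of 935 to 1500). It was lower in Treg than in Tconv of lymph node (-0.68 ± 0.19, adjusted p = 0.0493), and in fat it had 0.05 ± 0.15 in Treg (adjusted p = 0.812) and -0.42 ± 0.15 in Tconv (adjusted p = 0.0564) against lymph node. Abcb1a, an efflux pump that also exports corticosteroids, was higher in Treg than in Tconv of lymph node (1.77 ± 0.30) and thymus (1.74 ± 0.30, approximate), rose in fat Treg (0.99 ± 0.31) and fat Tconv (2.45 ± 0.31), and was lower in thymus than in lymph node (-2.42 in Treg and -2.43 in Tconv, each ± 0.31, the latter approximate); its thymus Tconv level was below the dim limit. Abca1, a cholesterol exporter, fell in fat Treg (-2.15 ± 0.33) and Tconv (-2.34 ± 0.33). Cyp11a1, the first enzyme of steroid synthesis, was above the dim limit in fat Treg alone, with deposited values of 60 to 196; it was higher there than in fat Tconv (1.71 ± 0.30) and than in lymph node Treg (1.55 ± 0.31), sizes that are approximate because all other groups were below the limit. It was tested only through fat Treg and could hardly be lower there. The count of 3 of 8 in fat Treg includes it, so that count and its share lean to higher values.

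Other genes known to be induced by glucocorticoids were mostly higher in fat. Of 23 tested, 15 rose and 2 fell in fat Treg (73.9% called, beside 34.3% of all genes, of which 16.1% rose and 18.2% fell), with a median of 1.36 against 0.01. In Tconv 14 rose and 0 fell (60.9%, beside 22.5%), with a median of 1.16 against -0.03. Anxa1, a mediator of glucocorticoid action, went from deposited values of 181 to 341 in lymph node Treg to 11200 to 13000 in fat Treg (5.23 ± 0.25, 37.7-fold) and from 85.8 to 137 to 3940 to 4340 in Tconv (4.95 ± 0.25). The metallothionein gene Mt2 rose by 3.77 ± 0.26 in fat Treg and the chemokine receptor gene Cxcr4 by 4.16 ± 0.32 in fat Tconv. Both were brighter in fat in the other cell type too, as deposited. Mt2 was at 287 to 602 in fat Tconv and 90.3 to 115 in lymph node Tconv. Cxcr4 was at 678 to 901 in fat Treg and 43.0 to 107 in lymph node Treg. Bcl2l11, a death gene of the glucocorticoid response in lymphocytes, fell in fat Treg (-1.09 ± 0.30), and so did Sesn1 (-0.55 ± 0.21). The list shares Dusp1 with the handling and immediate early genes, whose summed level was at least 33300 on each fat array and at most 10100 elsewhere. Genes that glucocorticoids are known to repress were higher in fat as well: 6 of 10 tested rose and 0 fell in Treg (60% called), and 7 rose and 0 fell in Tconv (70%), with medians of 0.72 and 1.11. They were led by Cxcl2, a neutrophil chemokine (7.23 ± 0.25 in Treg and 5.50 ± 0.25 in Tconv, from levels below the dim limit in lymph node, so the sizes are approximate), by Il6 in Treg (2.98 ± 0.47, also from below the limit) and by Ifng in Tconv (5.32 ± 0.48). A gene was tested where at least 1 group mean passed the dim limit. Cxcl2, Il6, Csf2 and Il4 of the repressed list, and Irs2 and Mt1 of the induced list, passed it in fat groups alone. Such genes could hardly fall in fat, so the counts, shares and medians of both lists lean to higher values there. With that limit, genes of both lists rose in fat. The counts were 15 to 18 higher of the induced and 6 to 9 of the repressed list in Treg under the 3 scalings. In thymus Treg the induced list had 1 higher and 4 lower of 23 (21.7% called, median -0.31) and the repressed list 0 higher and 3 lower of 10 (30% called, median -0.12), beside 11.8% of all genes; Cxcr4 rose there by 1.70 ± 0.32.

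Within tissues, the induced list had 4 higher and 0 lower of 23 in lymph node Treg (17.4%, beside 4.32%), 3 higher and 2 lower in thymus Treg (21.7%, beside 4.98%) and 9 higher and 2 lower in fat Treg (47.8%, beside 11.5%). The repressed list was called at high shares too. Of its 10 tested genes, 2 were higher and 0 lower in lymph node Treg (20%) and 1 higher and 0 lower in thymus Treg (10%). In fat Treg 3 were higher and 3 lower (60%). Il1r2, a decoy receptor, was higher in Treg of lymph node (2.52 ± 0.32) and thymus (2.25 ± 0.32), sizes that are approximate because Tconv of both tissues were not above the dim limit. In fat, Irs2, an adaptor of insulin signalling, was higher in Treg by 2.89 ± 0.17 and Mt1 by 2.55 ± 0.29; both genes were above the dim limit in the fat groups alone, so their Treg effects are not compared with lymph node. Bcl2l11 was lower in fat Treg than in fat Tconv (-1.55 ± 0.27).

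Of 30 tested pathway partners of the response genes, 8 were called in fat Treg (5 higher, 3 lower; 26.7%, beside 34.3%) and 8 in fat Tconv (5 higher, 3 lower; 26.7%, beside 22.5%), with medians of 0.08 and 0.09. On the deposited values, with their brighter fat scale, 14 were higher and 3 lower in Treg and 12 and 3 in Tconv. Ndrg1, whose protein is a substrate of the Sgk1 kinase, rose in fat Treg by 2.86 ± 0.21, from deposited values of 435 to 607 to 4130 to 5560, and its Treg effect differed between fat and lymph node (1.90 ± 0.32, adjusted p = 0.001). The related kinase gene Sgk3 fell in fat Treg (-1.55 ± 0.19) and Tconv (-1.80 ± 0.19). Foxo1, a transcription factor that the Sgk1 kinase inactivates, fell in fat Treg (-1.77 ± 0.21). As deposited, Ndrg1 and Foxo1 went the same ways in Tconv. Ndrg1 was at 247 to 311 in lymph node Tconv and 598 to 845 in fat Tconv. Foxo1 was at 2450 to 3190 in lymph node Tconv and 1410 to 2140 in fat Tconv. Tsc22d1, a paralogue of Tsc22d3, rose in fat Treg (1.78 ± 0.31) and Tconv (2.21 ± 0.31). Arrdc4, an arrestin gene related to Txnip, and the glucose transporter gene Slc2a3 were higher in Treg of lymph node (1.20 ± 0.16 and 1.48 ± 0.15); the size for Arrdc4 is approximate, since it was below the dim limit in Tconv.

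**Figure D5:**
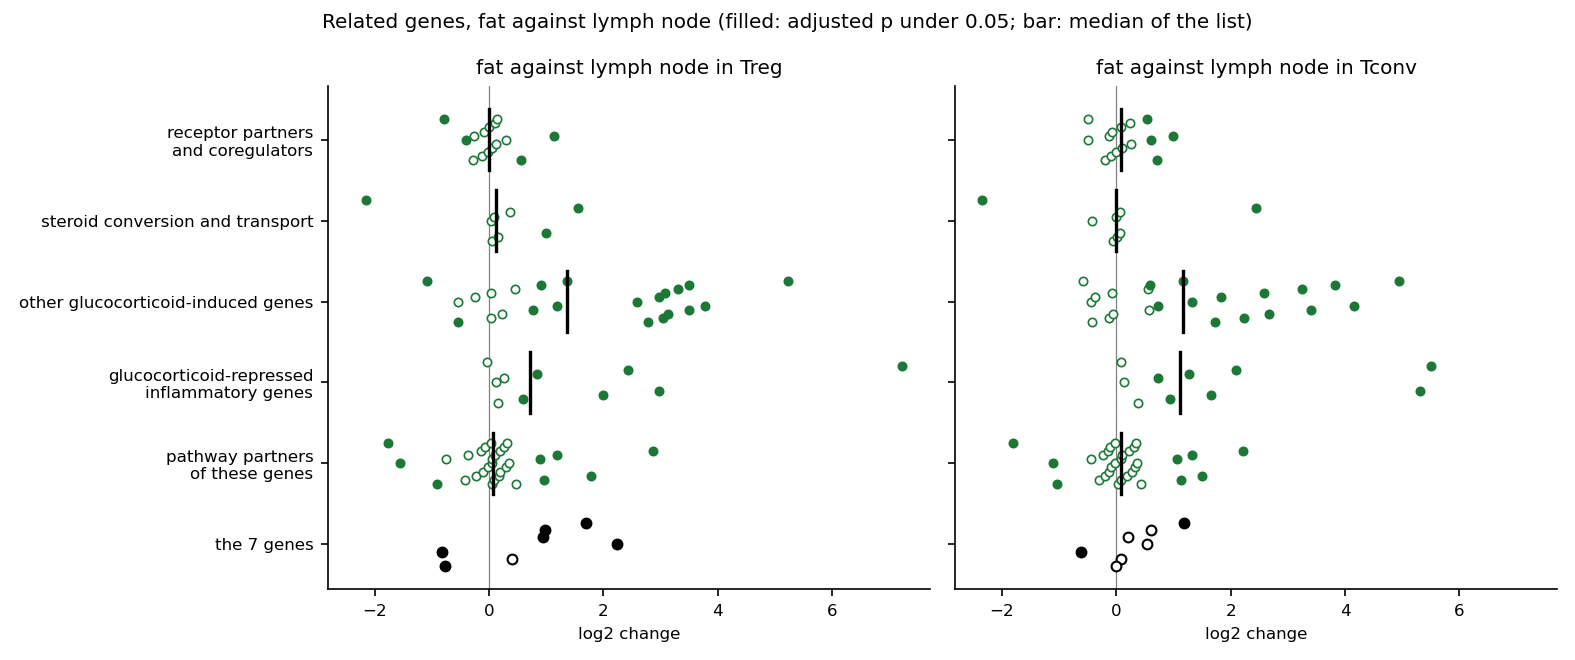
Log2 change in fat against lymph node (x axis) in Treg (left) and Tconv (right) for each tested gene of 5 lists of related genes and for the 7 genes, with filled points at an adjusted p under 0.05 and a bar at the list's median. The list of other glucocorticoid-induced genes has its median at 1.36 and 1.16, the receptor partners and coregulators at 0.00 and 0.08.

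The 7 genes did not share 1 pattern. Over the 6 group means (log2, common scale), Nr3c1 ran with Tsc22d3 (r = 0.97) and against Txnip (r = -0.60) and Ddit4 (-0.55), and Fkbp5 ran against Ddit4 (-0.84). These are descriptions over 6 points that share tissues. Among arrays of the same group (18 deviations from group means), Nr3c1 varied with Sgk1 at r = -0.74 and with Tsc22d3 at -0.16, and Txnip varied with Zbtb16 at -0.74 and with Ddit4 at -0.69. The genes most like each member over the 18 arrays, by Pearson correlation of log2 intensity among 12821 genes, were Tiparp, Gramd1c and Golph3 for Nr3c1 (r = 0.953 to 0.949) and Enc1, Acpp and Dap for Sgk1 (0.909 to 0.852). They were Tgoln1, Clk1 and Cnot6l for Tsc22d3 (0.855 to 0.828), Tmem107, Cd320 and Ppil1 for Fkbp5 (0.871 to 0.833), Ccdc71l, AU022252 and Ttc9c for Ddit4 (0.866 to 0.852), Mboat2, 1700013D24Rik and Myct1 for Zbtb16 (0.793 to 0.784), and Adck2, Gigyf2 and Selenoo for Txnip (0.866 to 0.847). Over the 6 group means, the genes named for Zbtb16, which was dim, had r = 0.388, 0.877 and 0.709. Those of the other members had 0.843 to 0.997. All of these are descriptions too, over arrays that share tissues.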

How the data were processed

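RNA of sorted, pooled T cells was amplified in 2 rounds and hybridised to Affymetrix M430v2 arrays, per the labels. The authors ran RMA (background correction, normalization and summary of probes) in GenePattern and deposited 1 intensity per probe set, not on a log scale, per the series' design text; versions and which arrays were normalized together are not given in the sources used here. Gene symbols came from the platform annotation supplied with the values (34945 of 45101 probe sets with 1 symbol, 932 with several, 9160 with none, 64 controls).

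The deposited intensities were put on the log2 scale and fitted with limma 3.58.1 (lmFit, eBayes; R 4.3.3), 1 coefficient per group over 18 arrays (12 residual and 4.83 prior degrees of freedom). Per gene, the probe set with the highest mean was used. Of 18193 genes, 12821 with at least 1 of 6 group means above the median of all values (65.9, log2 6.04) were tested, with Benjamini-Hochberg adjustment and a threshold of 0.05. Treg and Tconv were compared within tissues on deposited values, tissues after quantile normalization of all 18 arrays. As deposited, the median gene was 0.37 (Treg) and 0.33 (Tconv) higher in fat than in lymph node; after normalization 0.01 and -0.03. Intervals are 95%. The number of arrays, 3 per group, limits the precision. The fits were tested on simulated data.

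Replicate numbers are shared by Treg and Tconv of a tissue. Deviations from the group mean of same-numbered arrays correlated at 0.40 to 0.68 in lymph node, 0.41 to 0.56 in thymus and 0.35 to 0.54 in fat. They were therefore taken as pairs within a tissue in an alternative fit (the replicate block), while the main fits did not use the pairs. Groups of neighbouring CEL file numbers (5 in all) served as a further block. Both arrays of each pair lie in the same group, so within a tissue pairs and file number groups cannot be told apart, and the blocks are not separate checks. Of the thymus arrays, only those of replicate 3 share a group with lymph node arrays. Thymus against lymph node is therefore partly confounded with file number group.

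The 7 members, the 5 lists of related genes and the marker lists were chosen with earlier results of these data known. The rule for named genes gives the members, up to 2 called genes of each list with the widest change in each direction per comparison, Fkbp4, Nr3c2, Hsd11b1 and the sort markers, and the 3 genes most like each member. Of 99 listed related genes 94 had a probe set; the others were not analysed here. Alternatives were other scalings, no dim filter, an added constant of 32 before log2, other probe sets, a robust fit, the arrays of 1 tissue alone, both blocks and leaving out each array.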

Additional observations from a re-analysis of the deposited data

Results flagged for a closer look

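The Treg effect on Txnip went opposite ways in lymph node and thymus: each of 3 pairs was above 0 in lymph node (0.15 to 0.81) and each of 3 below 0 in thymus (-1.04 to -0.39). The test of the difference itself gave -1.04 ± 0.41 (log2, limma) with an adjusted p of 0.734, and of 0.214 with the replicate block, so it did not pass. The second probe set gave -0.74 ± 0.28 (adjusted p = 0.675).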

How the results depend on the processing

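With the replicate block the calls over all genes were 1028 in lymph node, 1528 in thymus, 2652 in fat, 1416 for the fat minus lymph node difference and 136 for the thymus one, and those of the members 2 in thymus (Ddit4 added), 2 in fat (Nr3c1 and Fkbp5) and 1 for the fat difference (Sgk1). Across tissues the numbers do not pair the arrays; as a block they gave 1 member in thymus Tconv (Txnip, 0.59, adjusted p = 0.0485), and Tsc22d3 passed in fat Tconv (0.0097) while Txnip did not in fat Treg (0.0532). The file number groups as a block gave 1 member in fat (Fkbp5) and 1017 genes for the fat difference, and as a random block 1168 genes and 2 members in thymus and 94 genes for the thymus difference. The 6 thymus arrays alone gave 383 genes. On the deposited values fat against lymph node had 7018 genes in Treg (5838 higher, against 2060 of 4392) and 5425 in Tconv (4899 higher, against 1402 of 2887), with 1 member in Tconv. Centring on the median left 3 members in fat Treg, 1 in fat Tconv and 1 in thymus Treg, and the next brightest probe sets 1 in thymus Treg. The causes were not tested.

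Changes of sign outside the fits without 1 array were all in values that were not called. Ddit4 in lymph node became 0 after quantile normalization and 0.01 after centring. Fat against lymph node Tconv gave Txnip 0.43 as deposited and 0.04 centred, and thymus against lymph node Tconv gave Nr3c1 0.05 and 0.07, and 0.02 with the random block, as for Zbtb16. The next brightest probe sets gave Nr3c1 0.11 and Fkbp5 -0.10 in lymph node, 0.05 and -0.05 in thymus, and Tsc22d3 0.16 for the thymus difference. The third Nr3c1 probe set gave 0.10 in lymph node, and 0.12 and 0.39 in thymus against lymph node (Treg, Tconv), the fourth, below the dim limit in both tissues, 0.30 and 0.53. The third Tsc22d3 probe set gave 0.00 in thymus, 0.12 in thymus against lymph node Treg and 0.12 for the thymus difference. Probe sets below the dim limit in all groups were fitted but left out of these alternatives, and their sizes are not given.

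Without 1 array in turn, the genes called numbered 437 to 976 in thymus, 949 to 1831 in thymus against lymph node Treg and 24 to 69 for the thymus difference. The members called numbered 1 to 2 in thymus, 0 to 1 in fat, 3 to 5 in fat Treg, 0 to 2 in fat Tconv, 0 to 2 in thymus Treg and 0 to 1 for the fat difference. A change of sign occurred in these members, given as log2 ranges. For Treg against Tconv in thymus it was Nr3c1 -0.44 to 0.08, Zbtb16 -0.04 to 0.25 and Tsc22d3 -0.72 to 0.16. For thymus against lymph node in Treg it was Nr3c1 -0.36 to 0.16 and Tsc22d3 -0.67 to 0.18. For Treg effect in thymus minus that in lymph node it was Nr3c1 -0.4 to 0.16, Tsc22d3 -0.5 to 0.37 and Sgk1 -0.04 to 0.69. For thymus against lymph node in Tconv it was Nr3c1 -0.24 to 0.19, Zbtb16 -0.15 to 0.06, Tsc22d3 -0.54 to 0.15 and Ddit4 -0.38 to 0.02. For Treg against Tconv in lymph node it was Nr3c1 -0.36 to 0.18 and Ddit4 -0.18 to 0.17. For fat against lymph node in Tconv it was Zbtb16 -0.07 to 0.24 and Txnip -0.31 to 0.19. For Treg effect in fat minus that in lymph node it was Ddit4 -0.32 to 0.03. For Treg against Tconv in fat it was Zbtb16 -0.07 to 0.26, Tsc22d3 -0.21 to 0.29 and Txnip -0.48 to 0.07. With 3 arrays per group, and Zbtb16 near the dim limit, differences of the size of these ranges could not be resolved.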
